A study of Homo sapiens with 4 samples.

Results

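Oxidative phosphorylation genes were described in AGS cells, an established human gastric adenocarcinoma cell line, after exposure to fibroblast growth factor 2 (FGF2). Members were the protein-coding genes whose names start with NDUF, UQCR, ATP5, MT-ND, MT-CO, MT-CYB or MT-ATP, with COX4 to COX8 and SDHA to SDHD. The rule took 110 of 51103 genes and left out 2 readthrough names. They comprised 86 nuclear genes of subunits, 13 genes of the mitochondrial genome, 8 NDUFAF assembly factor genes and 3 others, COX7A2L, ATP5IF1 and ATP5S.

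Polyadenylated RNA was sequenced in 2 groups of 2 libraries each. FGF2 cells received 20 ng/mL recombinant human FGF2 for 24 h. The comparison group is labelled NC, which the labels do not spell out, and the treatment text of these libraries mentions FGF2 too. The exposure of the NC cells is therefore not stated. Both groups are 1 line grown in DMEM with 10% serum, and the labels name no separate cultures. In each group, library 2 appears to include the reads of library 1, whose count was the higher one at 2 genes only. Each group was therefore counted as 1 sample (n = 1), and every difference below compares 1 FGF2 with 1 NC sample.

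Totals were 13790335 and 27598608 counts in FGF2 libraries 1 and 2, and 14073340 and 27325697 counts in NC libraries 1 and 2. Epithelial markers summed to 444.3 and 438.3 FPKM in FGF2 libraries and to 485.5 and 492.5 FPKM in NC libraries. Of these, KRT8 made 190.6 FPKM in FGF2 and 270.3 FPKM in NC library 2. By the rule given below, KRT8 was called lower and KRT19 higher, of 3 tested, and the fibroblast markers COL1A1 and PDGFRB lower, of 3 tested. FPKM is the count scaled by exon length and library total. The 9 fibroblast markers summed to 84.3 and 83.8 FPKM in FGF2 libraries and to 141.4 and 144.6 FPKM in NC libraries, of which COL1A1 made 59.4 and 103.8 FPKM in the libraries 2, and COL1A2 and FAP were at 0 in all 4. Endothelial markers summed to 0.322 FPKM or less in FGF2 libraries and 0.361 FPKM or less in NC libraries, and blood and immune markers to at most 0.884 and 1.07 FPKM. The part of these markers in the values below was not tested. In bulk RNA, fewer cells of a type and less RNA per cell cannot be told apart.

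Oxidative phosphorylation passes electrons from NADH (complex I) and succinate (complex II) through ubiquinone to complex III, then through cytochrome c to complex IV, which reduces oxygen. Complexes I, III and IV pump protons across the inner mitochondrial membrane, and complex V, the ATP synthase, uses the gradient to make ATP. Complexes I, III, IV and V contain subunits from both genomes, and complex II is wholly nuclear encoded. Growing cancer cell lines rely on the chain for aspartate and pyrimidine synthesis as well as for ATP.

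The transcripts of the machinery itself differed little between the groups. Each group's reads form 2 disjoint sets, library 1 and what library 2 adds to it. A gene was called higher when its lower FGF2 set exceeded its higher NC set 1.2-fold or more, and lower in the mirror case. The rule needed 50 counts per set on average, which 94 of the 110 members had. Only 1 member was called higher, the assembly factor gene NDUFAF4, and only 1 lower, the complex I subunit gene NDUFA2, while 92 were neither. Over all 11000 genes tested, 12.7% were called higher and 13.4% lower, against 1.06% of the members in each direction. At 1.5-fold the same 2 members passed, beside 3.14% of all genes higher and 5.18% lower. The 1.2-fold count of higher members depended on the read sets used. With library 1 alone for FGF2, 17.0% of members were higher and 4.26% lower, beside 17.5% and 17.9% of all genes.

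Fold changes are log2 ratios, FGF2 over NC, of scaled counts of the libraries 2, with 95% intervals that cover counting error only. Of the 94 members, 83 lay within 1.2-fold in the libraries 2 (88.3%), and so did 6402 of all 11000 genes (58.2%). Members had a median of 918 counts per read set and all genes tested 535.5, and the part of this difference in depth was not tested. The median log2 fold change of the 94 members was 0.08, beside 0.03 over all genes. It was 0.14 in library 1 and -0.02 in the other reads.

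The counts depended on the read sets used, most on the other reads of FGF2 library 2. Here, without library 1 means that its reads are left out of library 2 as well. Without library 2 means that only the reads of library 1 are used for that group. Without FGF2 library 2, 16 of 94 members were called higher (17.0%), beside 17.5% of all genes, and 4 were called lower (4.26%), beside 17.9%. Among them were NDUFB9, NDUFS3, NDUFS6, UQCRB, UQCRQ, ATP5MD, ATP5MF and MT-ND3. Without FGF2 library 1 the counts were 1 higher and 4 lower, beside 16.9% and 17.5% of all genes. Without NC library 1 they were 4 higher and 1 lower, beside 17.7% and 17.9%, and without NC library 2 also 4 and 1, beside 16.9% and 16.5%. The FGF2 read sets differed from each other over these genes. Of the 71 nuclear subunit genes tested, 53 had more scaled counts in library 1 of FGF2 than in its other reads (74.6%), beside 48.9% of all genes. The same count between the NC read sets was 32 of 71 (45.1%), beside 49.6% of all genes.

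**Figure D1:**
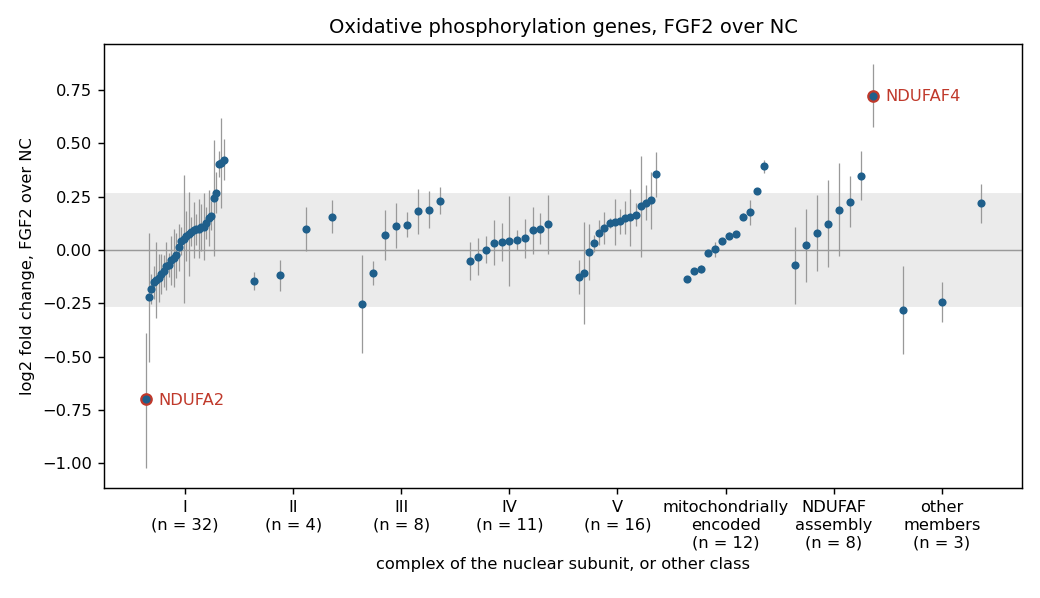
Log2 fold change (FGF2 over NC, libraries 2) of the 94 members tested, in columns by complex or class, sorted within each column. Bars are 95% counting intervals and the grey band is 1.2-fold. NDUFAF4 at 0.72 and NDUFA2 at -0.70 (red) stand apart from the others.

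Complex I oxidises NADH through a flavin and a row of iron-sulphur clusters. NDUFA2, an accessory subunit gene of its NADH module (ENSG00000131495, GRCh38 chromosome 5, 140638740 to 140647785, minus strand), had 68 and 135 counts in FGF2 libraries 1 and 2, against 120 and 231 counts in NC libraries 1 and 2. Its levels were 3.31 and 3.29 FPKM in FGF2 libraries and 5.73 and 5.68 FPKM in NC libraries, where the 2 values of a group share reads. The log2 fold change was -0.70 (-1.02 to -0.39). Library 1 gave -0.69 and the other reads -0.70. Part of its exon sequence is shared with genes on the opposite strand, TMCO6 among them, and the kit does not mark strand, so its count is uncertain.

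Of the 32 nuclear complex I genes tested, no other was called, and their median was 0.06, turning to -0.03 when scaled by the total count. The core genes lay close to 0. NDUFV1, which encodes the subunit that binds NADH, had 2531 and 4844 counts in FGF2 libraries against 2749 and 5348 in NC libraries, a log2 fold change of -0.07 (-0.13 to -0.01). NDUFS1, an iron-sulphur subunit gene, was at 0.04 (-0.03 to 0.11).

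The highest value among the tested nuclear complex I genes was that of NDUFAB1, which encodes the mitochondrial acyl carrier protein. It had 993 and 1982 counts in FGF2 libraries against 704 and 1555 in NC libraries, a log2 fold change of 0.42 (0.33 to 0.52). The first read sets gave 0.62 and the other reads 0.24, below the bound. NDUFB9, an accessory subunit gene of the membrane arm, stood at 46.4 and 42.5 FPKM in FGF2 libraries and at 35.5 and 34.1 FPKM in NC libraries. Its log2 fold change was 0.40 (0.34 to 0.46), and the sets gave 0.48 and 0.32. It was not called because the lowest FGF2 set was under 1.2-fold above the highest NC set. Other genes, mainly MTSS1, cover 21.0% of the NDUFB9 exon sequence, which makes this count uncertain too. NDUFC2, a membrane arm subunit gene, followed NDUFA2 at the low end of the tested genes with -0.22 (-0.52 to 0.08). Its sets differed in sign, at -0.56 and 0.08, and it shares 18.1% of its exon sequence with other genes.

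Complex II, succinate dehydrogenase, is shared with the tricarboxylic acid cycle. SDHA, the flavoprotein gene, had 4526 and 9112 counts in FGF2 libraries and 5569 and 10597 counts in NC libraries. Its levels were 39.2 and 39.4 FPKM in FGF2 libraries, below 47.2 and 46.3 FPKM in NC libraries, with a log2 fold change of -0.15 (-0.19 to -0.11). SDHB, the iron-sulphur subunit gene, was at 0.16 (0.08 to 0.23), and the membrane anchor genes SDHC and SDHD at -0.12 (-0.19 to -0.05) and 0.10 (0.00 to 0.20). No gene of the 4 was called, and 2 values lay on each side of 0.

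Complex III moves electrons from ubiquinol to cytochrome c. Its 8 tested nuclear members, which do not include the cytochrome gene CYC1 because of its name, had a median of 0.12. That median was -0.05 without FGF2 library 1, and 0 were called. UQCRH, the hinge protein gene, had the highest value of these 8, with 118.9 and 114.4 FPKM in FGF2 libraries and 109.2 and 103.4 FPKM in NC libraries, a log2 fold change of 0.23 (0.17 to 0.29). Its sets gave 0.22 and 0.25, just under the bound of 0.26. UQCRFS1, which encodes the Rieske iron-sulphur protein, was at 0.19 (0.10 to 0.27). UQCRC1, a core protein gene, was at -0.11 (-0.16 to -0.05), and UQCR11, a small subunit gene, at -0.25 (-0.48 to -0.02).

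Complex IV, cytochrome c oxidase, has tissue isoforms of several nuclear subunits, and AGS cells carried the ubiquitous one in each pair. COX4I1 stood at 58.0 and 55.7 FPKM in FGF2 libraries and at 58.5 and 57.3 FPKM in NC libraries, while COX4I2, the isoform known from lung and from hypoxia, was at 0 in all 4. COX6A1 stood at 12.7 and 10.0 FPKM in FGF2 libraries and at 11.8 and 10.3 FPKM in NC libraries, while its heart and muscle partner COX6A2 was at 0 in all 4. COX7A2 stood at 42.0 and 37.6 FPKM in FGF2 libraries and at 39.9 and 38.9 FPKM in NC libraries. COX7A1, the heart and muscle isoform, had 3 and 7 counts in FGF2 libraries and 0 and 6 in NC libraries. The log2 fold changes of COX4I1, COX6A1 and COX7A2 were 0.05, 0.04 and 0.04.

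The testis isoform genes COX7B2 and COX8C were also at 0 in all 4 libraries, beside COX7B at 17.4 FPKM in FGF2 and 18.0 FPKM in NC library 2, and COX8A at 62.5 and 61.1 FPKM. COX6B2, another testis isoform gene, had 12 and 16 counts in FGF2 libraries and 7 and 8 in NC libraries, where COX6B1 stood at 74.6 FPKM in FGF2 and 76.3 FPKM in NC library 2. NDUFA4, which was first assigned to complex I and belongs to complex IV, was at -0.03 (-0.12 to 0.05). NDUFA4L2, its hypoxia-induced partner, had 1 and 3 counts in FGF2 libraries and 4 and 6 in NC libraries, too few to compare. The 11 tested nuclear genes of complex IV ran from -0.05 for COX5B to 0.12 for COX8A, the narrowest range among tested nuclear genes of the 5 complexes, and their median of 0.04 turned to -0.05 when scaled by the total count.

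Complex V combines a catalytic head with a membrane rotor. ATP5F1B, which encodes the catalytic beta subunit, had the highest level of all nuclear members, at 473.4 and 483.1 FPKM in FGF2 libraries and at 458.2 and 469.5 FPKM in NC libraries. Its log2 fold change was 0.13 (0.10 to 0.15), and ATP5F1A, the alpha subunit gene, was at 0.03 (-0.01 to 0.07). ATP5MC1, ATP5MC2 and ATP5MC3, which encode the same mature ring subunit, were at 0.15 (0.07 to 0.23), -0.13 (-0.21 to -0.05) and 0.13 (0.07 to 0.19). The 16 tested genes had a median of 0.13, or 0.05 when scaled by the total count, and 0 were called.

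The highest value among the 16 tested nuclear complex V genes was that of ATP5MD, a small membrane subunit gene of the synthase dimer. It stood at 70.9 and 63.8 FPKM in FGF2 libraries and at 53.8 and 53.0 FPKM in NC libraries. Its log2 fold change was 0.35 (0.25 to 0.46), with 0.49 and 0.20 from the 2 read sets. ATP5MD shares 18.1% of its exon sequence with other genes, so its count is uncertain. ATP5IF1, the gene of the protein that inhibits the synthase when it runs in reverse, was at -0.24 (-0.34 to -0.15), but its sets gave -0.02 and -0.50. ATP5S, a coupling factor gene, was at -0.28 (-0.49 to -0.08) and was called lower when scaled by the total count. It shares 20.1% of its exon sequence with genes on the opposite strand. ATP5MGL was at 0 in all 4 libraries.

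**Figure D2:**
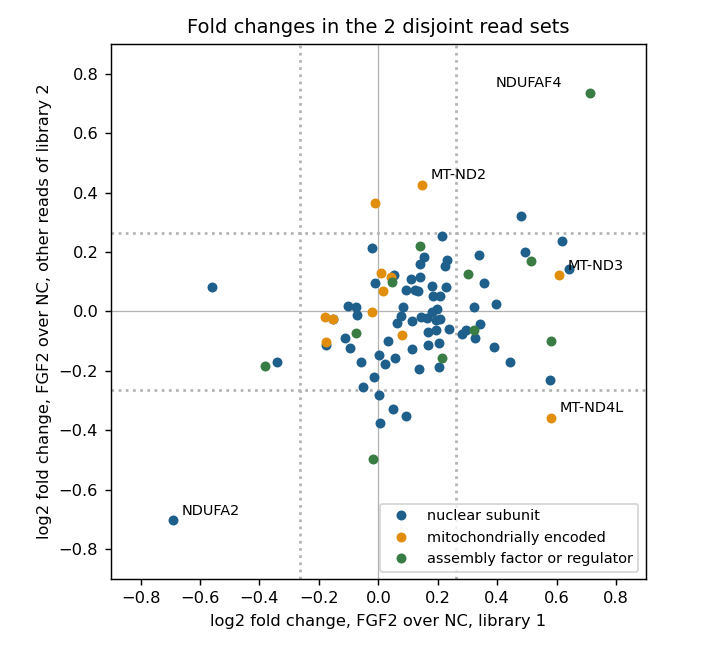
Log2 fold change (FGF2 over NC) of the 94 members tested, in library 1 (horizontal) and in the other reads (vertical), with dotted lines at 1.2-fold. NDUFAF4 (0.71 and 0.74) and NDUFA2 (-0.69 and -0.70) lie past the lines in both sets, and MT-ND4L (0.58 and -0.36) on opposite sides.

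The mitochondrial genome encodes 13 proteins, all subunits of complexes I, III, IV and V. Their transcripts took 3.35% and 3.37% of counts in FGF2 libraries, and 3.62% and 3.53% in NC libraries. The 97 nuclear members took 0.760% and 0.738% in FGF2 libraries, and 0.740% and 0.748% in NC libraries. Per length, the median over the 13 genes was 2779 FPKM in FGF2 and 2816 FPKM in NC library 2, while the detected nuclear complex I genes had medians of 19.0 and 16.8 FPKM. None of the 12 tested was called, and their median log2 fold change was 0.05, turning to -0.03 when scaled by the total count.

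Within complex I, MT-ND3 had 12065 and 20087 counts in FGF2 libraries and 8617 and 16102 in NC libraries, a log2 fold change of 0.39 (0.36 to 0.42). Library 1 gave 0.61 and the other reads 0.12, so 1 FGF2 read set stood apart. MT-ND2 was at 0.28 (0.26 to 0.29), with 0.15 and 0.43. MT-ND4L was at 0.18 (0.12 to 0.23), with 0.58 and -0.36. MT-ND1 (0.07), MT-ND4 (-0.02), MT-ND5 (-0.09) and MT-ND6 (0.00) lay closer to 0, and MT-ND6 is the one member encoded on the opposite strand of the mitochondrial genome from the others.

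MT-CYB, the cytochrome b gene of complex III, stood at 3178 and 3303 FPKM in FGF2 libraries, below 3838 and 3758 FPKM in NC libraries. Its log2 fold change was -0.10 (-0.11 to -0.09), with -0.18 in library 1 and only -0.02 in the other reads. MT-CO1, the catalytic subunit gene of complex IV, stood at 2759 and 2934 FPKM in FGF2 libraries, below 3329 and 3428 FPKM in NC libraries (-0.14, -0.15 to -0.13). Its sets gave -0.18 and -0.10. These FPKM levels are scaled by the library total alone, unlike the fold changes, which show smaller gaps. MT-CO2 and MT-CO3 were at 0.04 and 0.08. MT-ATP6, a membrane subunit gene of complex V, was at 0.15 (0.14 to 0.17), with -0.01 and 0.37 from the read sets.

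The intervals of these abundant genes are far narrower than the differences between read sets of 1 group. In FGF2, the other reads had 0.656 of the scaled MT-ND3 level of library 1 and 0.540 of that of MT-ND4L. In NC, the other reads had 0.735 of the scaled MT-ATP6 level of library 1 and 0.830 of that of MT-ND2.

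**Figure D3:**
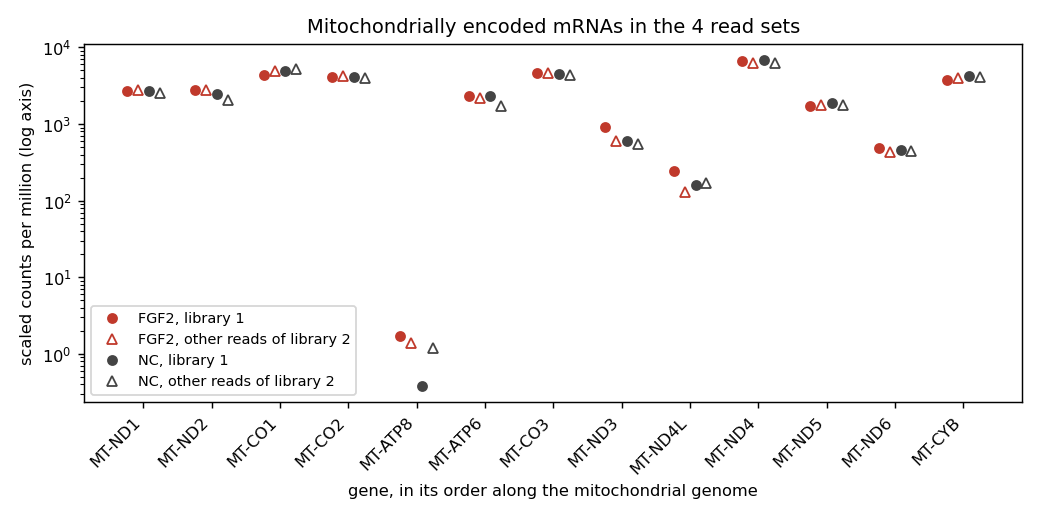
Counts scaled to a common library size (log axis) of the 13 mitochondrially encoded mRNAs in the 4 disjoint read sets, in the order of the genes along the mitochondrial genome. Circles are library 1 and triangles the other reads, FGF2 in red and NC in grey. MT-ATP8, with 22 and 40 counts in FGF2 libraries and 5 and 21 in NC libraries, stands far below all others.

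MT-ATP8, a small complex V subunit gene, is read from the same mRNA as MT-ATP6, and its reading frame runs into that of MT-ATP6. It had 22 and 40 counts in FGF2 libraries and 5 and 21 in NC libraries, beside 30517 and 60002 for MT-ATP6 in FGF2 libraries and 33445 and 56664 in NC libraries. The genes share 46 bases (GRCh38 chrM:8527-8572), and 161 of the 207 bases of MT-ATP8 are its own. MT-ND4L and MT-ND4 share 7 bases (chrM:10760-10766). The ends of both upstream genes are shown because reads over the shared bases belong to both genes. Capitals mark the shared bases.
MT-ATP8 into MT-ATP6: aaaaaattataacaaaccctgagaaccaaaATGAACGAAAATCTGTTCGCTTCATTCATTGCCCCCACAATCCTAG
MT-ND4L into MT-ND4: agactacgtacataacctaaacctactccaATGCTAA
Each capital run opens with the ATG that starts the downstream gene. How the counter treated reads that span both genes is not stated, so the low MT-ATP8 count is no measure of its mRNA, and its log2 fold change of 0.99 (0.21 to 1.84) rests on few counts.

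Pieces of the mitochondrial genome were copied into the nuclear genome in evolution, and reads can fall on either. There were 558 named copies of 60 members, copies of nuclear members among them, and 490 of the copies were at 0 in all 4 libraries. MTATP6P1 on chromosome 1, 98.5% identical to MT-ATP6 with 10 differing bases over 681, had 12153 and 22764 counts in FGF2 libraries and 10290 and 19871 in NC libraries. All named copies of MT-ATP6 together had 37.9% of its count in FGF2 and 35.1% in NC library 2. Gene and copies summed gave a log2 fold change of 0.19, beside 0.15 for MT-ATP6 alone. For SDHA, the named copies had 8.78% of its count in FGF2 and 9.22% in NC library 2, and the sum was at -0.15 as well.

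The NDUFAF genes encode assembly factors that help build complex I and are not part of it. NDUFAF4 (ENSG00000123545, GRCh38 chromosome 6, 96889313 to 96897881, minus strand), which acts early in assembly together with NDUFAF3, had 500 and 978 counts in FGF2 libraries and 332 and 623 in NC libraries. Its levels were 14.3 and 14.0 FPKM in FGF2 libraries and 9.29 and 8.98 FPKM in NC libraries. The log2 fold change was 0.72 (0.58 to 0.87), a ratio of 1.65, with 0.71 and 0.74 from the read sets. NDUFAF4 was called higher under every scaling tried and without any 1 read set, and it shares no exon sequence with another gene.

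Its partner NDUFAF3 was at -0.07 (-0.25 to 0.11). NDUFAF2, a late assembly factor gene, stood at 53.8 and 49.7 FPKM in FGF2 libraries and at 40.2 and 41.4 FPKM in NC libraries. Its log2 fold change was 0.35 (0.23 to 0.46), with 0.51 and 0.17 from the sets. NDUFAF8 was at 0.22 (0.11 to 0.34) with sets of 0.58 and -0.10, and the other 4 lay between 0.02 and 0.19. COX7A2L, a gene of a factor that joins complexes III and IV, was at 0.22 (0.13 to 0.31).

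Many low values came from genes that share exon sequence. Nuclear subunit genes with over 20 counts in the 2 libraries 2 together were split at 10% of exon sequence shared with another annotated gene on either strand. The 32 genes at or above it had median levels of 9.58 FPKM in FGF2 and 10.5 FPKM in NC library 2, and 9 of them were under 2 FPKM in NC. The 47 below it had medians of 31.5 FPKM in FGF2 and 34.0 FPKM in NC library 2, and 1 was under 2 FPKM. Core genes without which complex I is not active were among the lowest.

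NDUFS7, a core iron-sulphur subunit gene with 49.1% shared exon, had 0.356 and 0.337 FPKM in FGF2 libraries and 0.255 and 0.321 FPKM in NC libraries. NDUFV2, with 28.4% shared, had 27 and 48 counts in FGF2 libraries and 17 and 23 in NC libraries. NDUFA13, with 21.0% shared, had 24 and 40 counts in FGF2 libraries and 38 and 77 in NC libraries. With no count minimum NDUFV2 would be called higher and NDUFA13 lower. ATP5ME, with 61.6% shared, all of it with MYL5 on the opposite strand, had 8 and 26 counts in FGF2 libraries and 19 and 35 in NC libraries. NDUFB11 and NDUFA1 share 44.9% and 44.5% and stood at 65.4 and 45.3 FPKM in FGF2 and at 77.2 and 45.1 FPKM in NC library 2. These levels are those of the reads assigned, and whether shared reads were dropped was not tested.

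**Figure D4:**
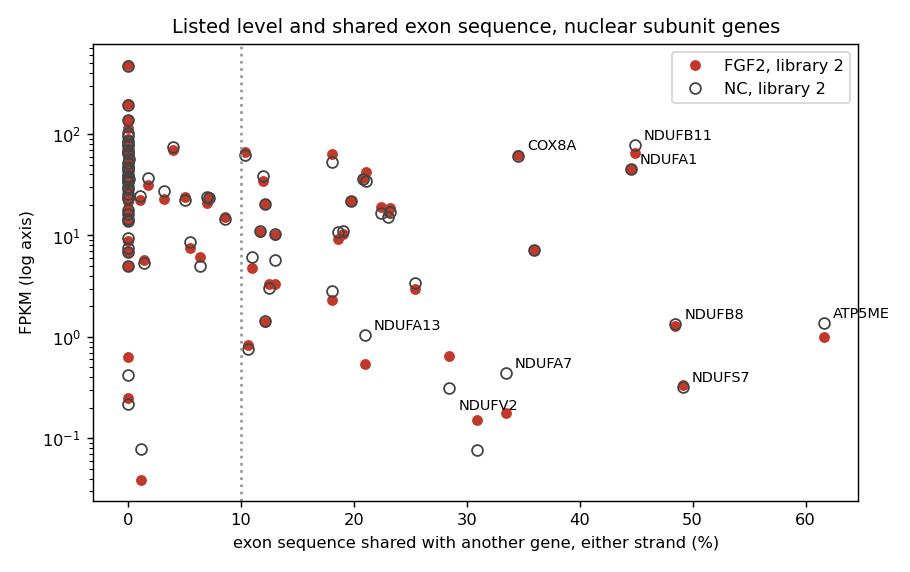
FPKM (log axis) of nuclear subunit genes against the share of their exon sequence that lies in another annotated gene, in FGF2 library 2 (filled) and NC library 2 (open). The dotted line is 10%. Right of it the genes have a median of 9.58 FPKM in FGF2 and 10.5 FPKM in NC, left of it 31.5 and 34.0 FPKM (genes with over 20 counts in all).

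Calls among related genes outside the name rule varied between lists, which were chosen with earlier results of these data known. Among 26 genes of mitochondrial DNA and RNA upkeep, 7 were called higher and 1 lower, with a median of 0.28, beside 12.7% and 13.4% of all genes. Scaled by the total count, 5 were higher and the median was 0.20, beside 8.47% of all genes. At 1.5-fold 0 of the 26 were called in either direction, beside 3.14% of all genes higher and 5.18% lower. TFB1M, the ribosomal RNA methyltransferase gene, stood at 6.39 and 6.86 FPKM in FGF2 libraries and at 3.90 and 4.27 FPKM in NC libraries (0.77, 0.57 to 0.98). LRPPRC, which encodes a protein that stabilises mitochondrial mRNAs, stood at 58.1 and 59.3 FPKM in FGF2 libraries and at 46.3 and 45.1 FPKM in NC libraries (0.48, 0.45 to 0.51). TFAM, which packages and transcribes mitochondrial DNA, was at 0.46 (0.39 to 0.52). PNPT1 (0.48), TWNK (0.39), ELAC2 (0.38) and FASTKD2 (0.29), which act in RNA decay, DNA unwinding, tRNA processing and RNA stability, were called as well. MTERF2 was lower at -0.74 (-1.08 to -0.41). Without NC library 2, 13 genes of this list were called higher, beside 16.9% of all genes, and without FGF2 library 2, 11, beside 17.5%.

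Of 20 genes of electron carriers and entry points, 3 were called higher and 3 lower, with a median of 0.10, close to the background in both directions. CYCS, the cytochrome c gene, stood at 79.8 and 79.9 FPKM in FGF2 libraries and at 64.3 and 64.9 FPKM in NC libraries (0.39, 0.34 to 0.43), while CYC1, the complex III cytochrome that hands it electrons, was at 0.08 (0.04 to 0.13). DHODH, which feeds electrons from pyrimidine synthesis to ubiquinone, was at 0.52 (0.37 to 0.67), with 0.77 and 0.28 from the read sets. COQ8A was at 0.34 (0.21 to 0.46). GPD2, the mitochondrial glycerol phosphate dehydrogenase gene, was lower at -0.36 (-0.46 to -0.27), as were COQ8B (-0.69) and COQ10A (-0.63). For COQ8B the read sets gave -0.31 and -1.02. Scaled by the total count, 1 was higher, CYCS, and 3 were lower, beside 8.47% and 17.6% of all genes.

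Calls among other assembly factors are read against the 12.7% of all genes called higher. For complex IV, COA6 (0.60, 0.42 to 0.78) and FASTKD3 (0.46, 0.32 to 0.60) were called higher of 20 tested. For complexes II, III and V, LYRM7 (0.49, 0.38 to 0.60) and TMEM70 (0.43, 0.29 to 0.56) were called higher of 12. Scaled by the total count this was 1, beside 8.47% of all genes. Complex I assembly factors not named NDUFAF had 0 calls of 10. COA6 acts in copper delivery, LYRM7 in insertion of the Rieske protein and TMEM70 in ATP synthase assembly.

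Among 10 tested regulators of these genes, PPARGC1B, a coactivator gene of the PGC-1 family, stood at 3.01 and 3.02 FPKM in FGF2 libraries and at 1.94 and 1.89 FPKM in NC libraries (0.77, 0.62 to 0.91). ESRRA, the gene of a nuclear receptor that such coactivators bind, was at 0.38 (0.30 to 0.47) and was the other one called. Scaled by the total count, only PPARGC1B was called, and a count of 2 of 10 is read against 12.7% of all genes higher. NRF1 (-0.02), GABPA (0.22) and YY1 (-0.04), whose proteins bind promoters of respiratory chain genes, were not called. PPARGC1A had 3 and 7 counts in FGF2 libraries and 5 and 14 in NC libraries.

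**Figure D5:**
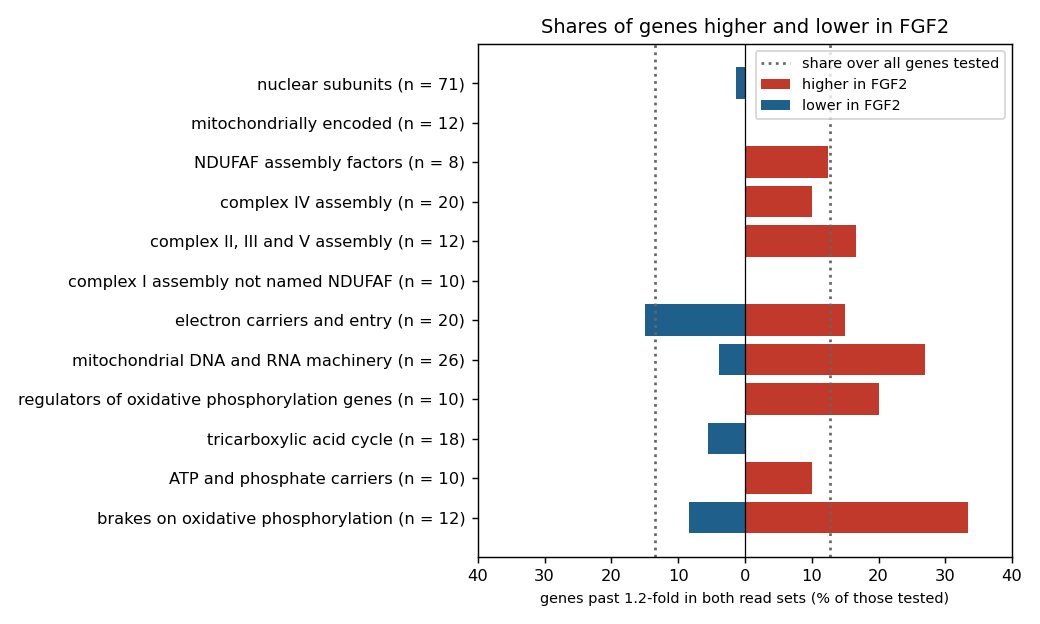
Share of tested genes called higher (right) or lower (left) in FGF2 than in NC at 1.2-fold, for 3 classes of members and 9 lists of related genes. Dotted lines mark the shares over all 11000 genes, 12.7% higher and 13.4% lower. Nuclear subunits (71 tested) and mitochondrially encoded genes (12 tested) are nearly empty.

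Promoters of the members were read from RefSeq (GRCh38.p14, 250 bases before to 50 after the start). A promoter was matched for 75 of the 97 nuclear members. The letters GCGCATGC, a core of the NRF1 site, were found on either strand in 13 of 66 subunit promoters (19.7%), beside 4.26% of 15843 promoters of protein-coding genes. CCGGAAGT, an ETS site bound by GABP, was in 9 (13.6%), beside 6.19%. AAGATGGC, a YY1 site, was in 11 (16.7%), beside 3.91%. The 3 strings were counted apart, the NRF1 string can overlap its own reverse complement, and a match describes letters, not binding.

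Excerpts of 76 and 163 bases around the matches are shown as examples, for NDUFAF4, the member called higher, and for COX5B, which holds matches to both NRF1 and ETS strings. Capitals mark the matched letters, and both run 5′ to 3′ on the strand of the gene.
NDUFAF4 (chr6:96897866-96897941, minus): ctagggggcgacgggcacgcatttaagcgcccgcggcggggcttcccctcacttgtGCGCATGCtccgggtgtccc
COX5B (chr2:97645914-97646076, plus): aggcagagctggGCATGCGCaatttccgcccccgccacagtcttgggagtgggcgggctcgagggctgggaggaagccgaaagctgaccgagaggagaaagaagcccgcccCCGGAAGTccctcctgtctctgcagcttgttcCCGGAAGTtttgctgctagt
COX5B, a nuclear subunit gene of complex IV, had 931 and 1892 counts in FGF2 libraries and 974 and 2062 in NC libraries (-0.05, -0.14 to 0.04). The promoter of NDUFA2 held none of the 3 strings. Among tested members with a promoter, the 13 with the NRF1 string had a median log2 fold change of 0.10 and the 52 without it 0.07. With and without the ETS string the medians were 0.07 and 0.08, and with and without the YY1 string 0.16 and 0.07.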

How the data were processed

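RNA of 2 libraries per group was sequenced as polyadenylated RNA with a kit that does not mark strand, per the labels' protocols. Raw read counts per gene and FPKM values were deposited by the authors, and HISAT2, HTSeq 0.13.5 and GRCh38 are named in the submitters' processing notes. The deposited FPKM values use merged exon lengths that equal GENCODE v29 for 99.5% of 11923 genes.

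Because library 2 of each group appears to contain the reads of library 1, the design's test for separate libraries was not used as the main result. Counts were parted into library 1 and library 2 less library 1, scaled by TMM in edgeR 4.0.16 (R 4.3.3) over 15030 genes kept by filterByExpr, with 0.5 added to each count. Intervals are exact Clopper-Pearson 95% intervals and cover counting error only. edgeR and DESeq2 1.42.0 tests over the read sets are alternatives. List counts under other scalings and without single read sets were added after seeing the data.

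Members and lists were chosen with earlier results of these data known. Named genes were the members called, the 2 highest and 2 lowest of each complex, the mitochondrially encoded genes, isoform families, members at 0 and called list genes. Others, such as core subunit genes, were chosen after their values were seen. PRORP was matched under the older name KIAA0391 and 1 list gene was not matched. Same-numbered read sets did not deviate together (r of 0.0107 over 15030 genes).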

Additional observations from a re-analysis of the deposited data

How the results depend on the processing

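The member counts (1 higher, 1 lower of 94) depended on how read sets were combined. With the mean of both deposited libraries, which counts the reads of library 1 again, 13 were higher and 4 lower, beside 21.2% and 20.8% of all genes. Tests over the read sets, at an adjusted p under 0.05, which compare libraries and not conditions, gave 10 higher and 3 lower (edgeR quasi-likelihood, no replicate block), 13 and 3 (edgeR with the replicate block) and 6 and 0 (DESeq2), beside 21.7% and 16.9%, 22.1% and 17.2%, and 16.9% and 12.4% of all genes. At an unadjusted p under 0.05, DESeq2 gave 10 higher and 3 lower, beside 21.7% and 16.8% of all genes. NDUFAF4 was higher in all 3 tests and NDUFA2 lower in both edgeR fits. The read set numbers do not pair the samples. With no count minimum 2 were higher and 2 lower, and the share over all genes at that setting is not given here. Scaled by the total count or by the total less mitochondrially encoded genes 2 were lower, beside 17.6% and 17.7% of all genes. Without members of at least 10% shared exon 0 were lower.

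Leaving out 1 read set at a time gave 1 to 16 members higher and 1 to 4 lower. Of all genes, 16.9% to 17.7% were then higher and 16.5% to 17.9% lower. Leaving them out moved the medians to between -0.038 and 0.16 for nuclear subunits and -0.050 and 0.18 for complex III. The medians lay between -0.063 and 0.17 for complex IV and between -0.024 and 0.30 for NDUFAF genes. Scaling by the total count lowered the median of all genes by 0.09, and the nuclear and mitochondrially encoded medians became -0.01 and -0.03. Differences between read sets of 1 group, which for MT-ND4L in FGF2 came to a ratio of 0.540, limit the precision.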

Other observations

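Of 18 genes of pyruvate oxidation and the tricarboxylic acid cycle, 0 were called higher and 1 lower, beside 12.7% and 13.4% of all genes. Without FGF2 library 1, 2 were higher and 2 lower, beside 16.9% and 17.5% of all genes. The gene called lower was IDH2, the mitochondrial NADP-linked isocitrate dehydrogenase gene, at 14.1 and 14.7 FPKM in FGF2 libraries and at 28.0 and 28.5 FPKM in NC libraries, a log2 fold change of -0.87 (-0.98 to -0.77). IDH3A, IDH3B and IDH3G, the genes of the NAD-linked enzyme of the cycle, were at 0.31 (0.21 to 0.41), 0.19 (0.13 to 0.25) and 0.06 (-0.03 to 0.15). IDH3A shares 38.9% of its exon sequence with other genes. OGDH, a gene of the oxoglutarate dehydrogenase complex, was at -0.27 (-0.32 to -0.22) and was called lower when scaled by the total count. CS, the citrate synthase gene, was at 0.08 (0.04 to 0.12). Of 10 carrier genes, VDAC1, the main outer membrane channel gene, was called higher at 0.37 (0.34 to 0.41), and the adenine nucleotide carrier genes SLC25A5 and SLC25A6 were at 0.23 and 0.02. Scaled by the total count, VDAC1 was not called and UCP2, another of the 10, was called lower. The shares of all genes were then 8.47% higher and 17.6% lower.

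A list of 12 tested genes that steer pyruvate away from mitochondria, remove mitochondria or act in their stress responses had 4 higher and 1 lower, beside 12.7% and 13.4% of all genes. PDK1, the kinase gene that switches off pyruvate dehydrogenase, stood at 2.45 and 2.79 FPKM in FGF2 libraries and at 1.59 FPKM in both NC libraries (0.89, 0.75 to 1.04). LDHA and the mitophagy receptor gene BNIP3 were at 0.64 and 1.09, and MIR210HG, the host gene of a hypoxia-induced miRNA, at 0.99 (0.66 to 1.35). PDK2 was at -0.63 (-0.88 to -0.39) and overlaps other genes over 38.6% of its exons. PDK3 was at 0.08 (-0.14 to 0.31). PDK4, under the count minimum, had 8 and 16 counts in FGF2 libraries and 34 and 64 in NC libraries. BNIP3L, the relative of BNIP3, was at -0.01 (-0.13 to 0.10). The list mixes roles, and its 4 higher genes also passed at 1.5-fold, beside 3.14% of all genes. It was chosen with earlier results of these data known, so its counts against these shares are a description and no test.

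Nuclear copies of mitochondrial genes did not always follow the gene. MTCO1P12 on chromosome 1, 98.6% identical to MT-CO1, had 795 and 1264 counts in FGF2 libraries and 290 and 590 in NC libraries. Its log2 fold change was 1.17 (1.03 to 1.31), beside -0.14 for MT-CO1, with 1.58 in library 1 and 0.66 in the other reads. MTND2P28 had 287 and 1276 counts in FGF2 libraries and 265 and 530 in NC libraries. Its library 1 gave 0.24 and the other reads 1.92, so 1 read set of FGF2 holds most of the difference.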
